A study of Mus musculus with 18 samples.

Results

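The genes described here encode secreted chemokines and interleukins of the mouse. They were chosen by symbol alone, as every gene named Ccl, Cxcl or Il with a number and, for interleukins, at most 1 further letter from a to f, together with Cx3cl1 and Xcl1. The rule found 49 genes, of which 43 were among the 25628 genes of the first count table and 45 among the 26903 genes of the second. They comprised 11 CC chemokines, 12 CXC, CX3C and XC chemokines and 26 interleukins. Of the 49, 39 stood in both tables, 4 only in the first (Cxcl12, Il16, Il7 and Xcl1) and 6 only in the second (Ccl1, Cxcl1, Cxcl17, Il10, Il22 and Il25).

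The cells were mouse TgSpi1 erythroleukemic blasts, which overproduce the transcription factor SPI1 (PU.1) from a transgene and were grown with erythropoietin. They carry a doxycycline-inducible short hairpin RNA against Spi1, and polyadenylated RNA was sequenced from 18 libraries in 6 groups of 3, called biological replicates in the labels. In experiment 1, cells had no doxycycline (Exp1_NoDox) or 48 h of doxycycline (Exp1_Dox). In experiment 2, cells without doxycycline received DMSO (NoDox_DMSO) or entinostat (NoDox_Entinostat), and cells with 48 h of doxycycline received DMSO (Dox_DMSO) or entinostat (Dox_Entinostat). Entinostat inhibits the histone deacetylases HDAC1 and HDAC3, and cells were exposed to 3 µM of it for 6 h, the DMSO groups being its controls. Every group shares the same cells, the transgene and the hairpin construct, so doxycycline itself and loss of SPI1 cannot be told apart, and all values describe 1 source of leukemic cells.

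Chemokines are small secreted proteins that bind G protein-coupled receptors and direct the migration of leukocytes, and interleukins are secreted signals that act through receptors on blood and tissue cells. Many of their genes are nearly silent in resting cells and are switched on within hours of a stimulus by factors such as NF-kB, AP-1 and the interferon-activated factors. Histone deacetylases remove acetyl groups from histones at promoters and enhancers, and SPI1 is an ETS factor required for the macrophage and B cell lineages that also represses genes in erythroid blasts.

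Library totals were 82674499 to 113804574 counts in experiment 1 and 43116322 to 48855905 in experiment 2, and levels are given as CPM, the count relative to the library total scaled by its TMM factor. Spi1 itself stood at 379, 455 and 459 CPM in Exp1_NoDox and at 133, 125 and 132 CPM in Exp1_Dox. It stood at 200, 259 and 251 CPM in NoDox_DMSO against 59.5, 126 and 105 CPM in Dox_DMSO, and at 221, 480 and 482 CPM in NoDox_Entinostat against 98.5, 162 and 132 CPM in Dox_Entinostat. In each of these 3 pairs every doxycycline library was below every library without it. The first Dox_DMSO and the first NoDox_Entinostat libraries stood apart from the others of their groups, with a root mean square log2 difference over genes of 0.783 and 0.759 against 0.330 to 0.518 in the other libraries of experiment 2. These 2 libraries departed from their group means together, with a correlation over genes of 0.780. Where leaving out both changed the call of a member, the value without both is given below.

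All 12 of the listed erythroid marker genes found in the tables reached 1 CPM in every group, and their summed level was 3588 to 4346 CPM in Exp1_NoDox against 5531 to 6664 CPM in Exp1_Dox and 3276 to 3584 CPM in NoDox_DMSO against 4675 to 5596 CPM in Dox_DMSO. Several lists of markers of other cell types were at higher summed levels with entinostat. The summed level of the mast cell and basophil list was 8.40 to 13.1 CPM over the NoDox_DMSO libraries and 54.3 to 145 CPM over the NoDox_Entinostat libraries, with Fcer1a highest at a mean of 47.8 CPM and Mcpt8 at 0. The macrophage and monocyte list summed to 4.18 to 4.87 CPM in NoDox_DMSO and to 17.5 to 22.6 CPM in NoDox_Entinostat, where 3 of its 11 measured genes reached 1 CPM and C1qb and Marco were at 0. With doxycycline the corresponding macrophage sums were 1.70 to 2.68 CPM in DMSO and 2.98 to 4.87 CPM in entinostat, and the mast cell sums were 3.08 to 10.9 and 39.9 to 82.8 CPM. The stromal and endothelial list summed to 0.517 to 0.807 CPM in NoDox_DMSO and 5.0 to 10.8 CPM in NoDox_Entinostat, the neutrophil list to 0.152 to 0.337 and 2.83 to 3.91 CPM, and the T and NK cell list to 1.85 to 3.12 and 8.24 to 12.4 CPM. The summed level of the megakaryocyte list overlapped between these groups, at 97.6 to 147 and 117 to 141 CPM, and so did that of the erythroid list, at 3276 to 3584 and 3065 to 3448 CPM. Single genes still differed. In the edgeR tests described below, 6 of 9 megakaryocyte genes were higher and 1 lower, and 5 of 12 erythroid genes higher and 3 lower. Over all genes tested, 30.3% were higher and 16.9% lower. The largest means in NoDox_DMSO were 70.2 CPM for Gp5, the megakaryocyte gene called lower, and 2660 CPM for Tfrc. The B cell list stayed below 1 CPM in every library. The part of these genes in the results below was not tested, and in bulk RNA fewer cells of a type and less RNA per cell cannot be told apart.

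Most of the family was nearly silent. Only 13 of the 49 genes reached a mean of 1 CPM in any group, and only 5 of them (Il1b, Ccl25, Il4, Cxcl3 and Il11) did so without entinostat. In experiment 2, 16 genes had at most 10 counts over all 12 libraries together. In experiment 1, whose table holds no value under 1, 6 genes (Ccl3, Cxcl12, Il16, Il33, Il7 and Xcl1) were listed at 1 in every library. Per kilobase of exon, the highest group means were those of Il1b at 31.1 CPM per kb and Il4 at 13.5 CPM per kb, both in Dox_Entinostat. Ccl25 followed at 2.76 CPM per kb in the same group and Ccl17 at 2.75 CPM per kb in NoDox_Entinostat, 2 values closer than their spread over libraries.

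**Figure D1:**
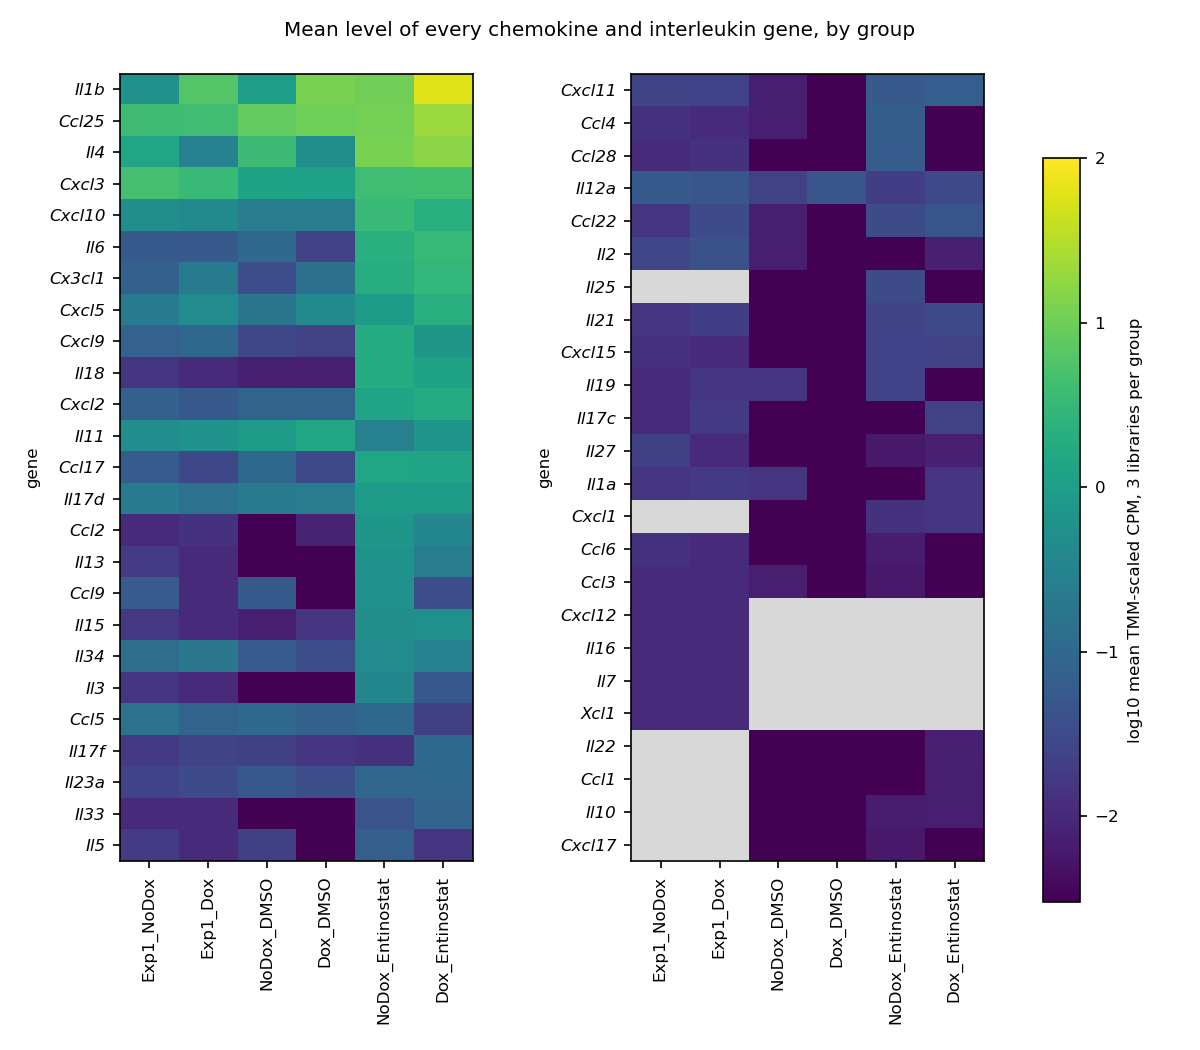
Colour shows the log10 of the mean TMM-scaled CPM over 3 libraries for each of the 49 genes (rows) in each of the 6 groups (columns), with 0 drawn in the darkest colour and genes outside a table in grey. The brighter rows at the top left are the 13 genes that reach 1 CPM, and the columns of both entinostat groups are brighter than those of both DMSO groups for most of them.

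Promoter sequence was available from RefSeq (GRCm38.p6) for 36 of the 49 genes and for 12 of the 13 that reached 1 CPM. The 250 bases before the start site are shown for the interleukins with the highest level per kilobase and for an interleukin and a chemokine that were among the genes higher with entinostat. Capitals mark matches, on either strand, to the letters GGANTTTCC (kB-type), TTTCNNTTT (ISRE-type) and TGANTCA (AP-1), and to the TATA box. Il1b lies on the minus strand, with this window at chr2:129371140-129371389, and holds a TATA box that begins 31 bases before the start. Il4 is on the minus strand (chr11:53618666-53618915), with ISRE-type matches at 190 and 147 bases before the start. Il6 is on the plus strand (chr5:30012864-30013113), with an AP-1 match at 249 and a kB-type match at 43 bases before it. Cxcl10 is on the minus strand (chr5:92348890-92349139), with ISRE-type, kB-type and AP-1 matches at 212, 158 and 74 bases before it.
Il1b: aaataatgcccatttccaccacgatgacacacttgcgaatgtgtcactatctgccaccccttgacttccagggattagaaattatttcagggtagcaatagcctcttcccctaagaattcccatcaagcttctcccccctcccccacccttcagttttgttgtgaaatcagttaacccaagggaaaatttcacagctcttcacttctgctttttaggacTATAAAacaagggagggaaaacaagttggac
Il4: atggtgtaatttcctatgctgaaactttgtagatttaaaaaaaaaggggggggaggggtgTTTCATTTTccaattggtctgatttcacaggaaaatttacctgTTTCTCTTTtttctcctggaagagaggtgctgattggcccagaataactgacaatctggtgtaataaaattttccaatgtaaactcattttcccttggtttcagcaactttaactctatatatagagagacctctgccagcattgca
Il6: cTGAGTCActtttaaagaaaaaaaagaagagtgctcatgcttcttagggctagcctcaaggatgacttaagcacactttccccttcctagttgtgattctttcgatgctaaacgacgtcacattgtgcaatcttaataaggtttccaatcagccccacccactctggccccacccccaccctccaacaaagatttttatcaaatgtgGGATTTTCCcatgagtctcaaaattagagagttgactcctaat
Cxcl10: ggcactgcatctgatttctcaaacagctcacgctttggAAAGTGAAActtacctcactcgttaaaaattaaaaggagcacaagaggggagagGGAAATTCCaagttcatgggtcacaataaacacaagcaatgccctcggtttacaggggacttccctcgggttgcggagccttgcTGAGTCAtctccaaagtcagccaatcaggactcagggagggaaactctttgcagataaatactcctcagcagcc
Over the full windows of 250 bases before to 50 bases after the start, the kB-type letters were in 4 of the 12 promoters (Cxcl10, Cxcl2, Cxcl3 and Il6), against 1.45% of the 27025 genes with a promoter. The AP-1 letters were in 4 (Cxcl10, Cxcl9, Il11 and Il6), against 8.97% of genes, and the ISRE-type letters in 2 (Cxcl10 and Il4), against 12.1%. The letters TATAAA of the TATA box were in 6 (Ccl25, Cx3cl1, Cxcl3, Cxcl9, Il18 and Il1b), against 15.7%. They began 31 bases before the start in Il1b and 30 in Cxcl3, but 16 in Ccl25, 6 in Cx3cl1 and 195 in Cxcl9. In Il18 they were at 175 on the opposite strand, so a match to the letters is not a TATA box by position in each of these genes. The PU.1-type letters GAGGAAGT were in none of the 12, against 3.69% of genes. No match overlapped another in the windows shown. The matches describe these letters in these windows and were not tested for use.

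The low-count filter kept 10 of the 43 genes in experiment 1 and 20 of the 45 in experiment 2, and tests used edgeR with p-values adjusted over all genes tested and a threshold of 0.05. In experiment 2, only 8 of the 20 (Il4, Il11, Ccl25, Il1b, Cxcl5, Cxcl3, Cxcl10 and Il17d) were over the filter limit in 3 or more DMSO libraries. The other 12 passed through the entinostat libraries, and 10 of those were over the limit in no DMSO library, so their difference with entinostat was built into passing and the counts below are a description. In experiment 1, 7 of the 10 were over the limit in all 3 Exp1_NoDox libraries, and Cx3cl1 was over it in the Exp1_Dox libraries alone, so its difference with doxycycline was built in likewise.

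With doxycycline, Il1b was called in every comparison. In experiment 1, 2 of 10 (Il1b and Cx3cl1) were higher and 0 lower, against 5.26% higher and 8.36% lower over all genes tested. With the replicate number as a block, since same-numbered libraries of experiment 1 deviated together, 5 were called, 3 higher and 2 lower, against 26.1% and 24.7% of all genes in that fit. In DMSO, 1 of 20 was higher and 1 lower, against 3.77% and 5.53% of all genes, and without the first Dox_DMSO and first NoDox_Entinostat libraries 3 were higher and 1 lower, against 17.4% and 13.9%. In entinostat, 4 of 20 were higher and 3 lower, against 8.96% and 15.1% of all genes, and without both libraries 5 and 5, against 26.1% and 35.7%. The lower calls of Il3 and Ccl9 there were built in, since both passed the filter through the NoDox_Entinostat libraries alone.

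With entinostat, nearly every tested gene was higher. Without doxycycline, 18 of 20 were called higher and 1 lower, against 30.3% and 16.9% of all genes tested. With doxycycline, 17 were called higher and 1 lower, against 33.9% and 29.9%. The 12 genes that passed the filter through entinostat libraries are part of these counts and of the medians below, so neither is a test of the set. Among the 8 over the limit in 3 or more DMSO libraries, Il4, Il1b, Cxcl5, Cxcl3, Cxcl10 and Il17d were called higher and Il11 lower in both comparisons. Ccl25 was called higher with doxycycline alone. The median log2 fold change over the 20 was 3.75 without and 4.36 with doxycycline, against 0.07 and 0.14 over all genes. With the genes that had 3 counts or fewer in a DMSO group set at their ratio of counts or its lower bound, these medians were 3.75 and 3.29. Scaling by library size alone moved the all-gene median without doxycycline to 0.32 and the share of calls that were higher from 64.1% to 81.5%, and no called member turned its direction. The same counts of 18 and 1, and 17 and 1, were obtained without the first Dox_DMSO and first NoDox_Entinostat libraries, against 36.2% and 27.7%, and 43.1% and 34.7%, of all genes. The comparisons of experiment 2 share groups with each other, so their values stand side by side and are not independent of each other.

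**Figure D2:**
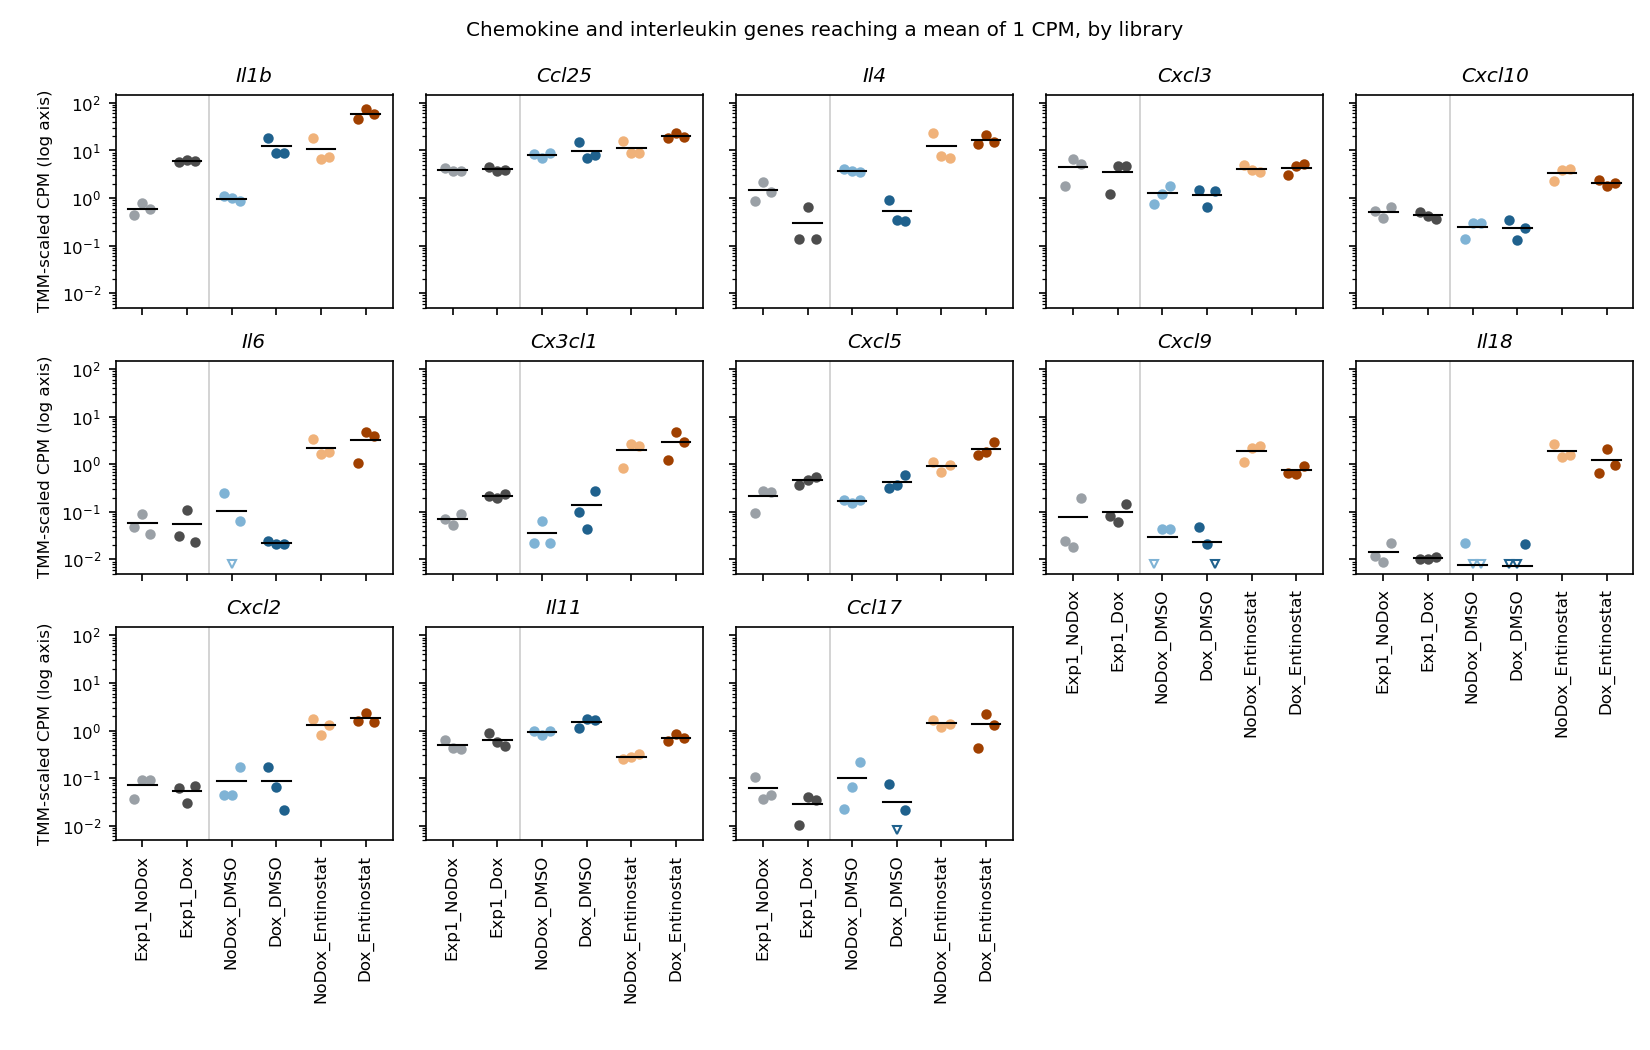
Each panel shows 1 of the 13 genes that reach a mean of 1 CPM. Each point is 1 library (TMM-scaled CPM, log axis), the bar is the mean of 3 libraries, open triangles are libraries at 0, and the grey line parts the experiments. Il1b is higher with doxycycline in all 3 pairs of groups, Il4 is lower with doxycycline in experiment 1 and in DMSO but overlaps in entinostat, and every entinostat library of Il6 and Il18 is above every DMSO library.

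Il1b encodes interleukin-1 beta, a precursor that inflammasome caspases cleave into a fever-inducing signal, and it was the only member called higher with doxycycline in experiment 1, in DMSO and in entinostat. Its level was 0.431, 0.790 and 0.575 CPM in Exp1_NoDox and 5.84, 6.23 and 6.08 CPM in Exp1_Dox. In experiment 2 it was 1.08, 0.977 and 0.873 CPM in NoDox_DMSO and 18.6, 9.01 and 8.90 CPM in Dox_DMSO. In entinostat it was 18.1, 6.58 and 7.28 CPM without and 46.5, 72.8 and 58.4 CPM with doxycycline. No doxycycline library overlapped its control in any of these pairs, and the lowest Dox_Entinostat library was above every other library of the series.

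On the log2 scale, Il1b rose with doxycycline by 3.32 ± 0.23 (SE, adjusted p = 0.000926) in experiment 1, 3.63 ± 0.44 (adjusted p = 0.000133) in DMSO and 2.48 ± 0.39 (adjusted p = 0.00162) in entinostat. It rose with entinostat by 3.44 ± 0.43 (adjusted p = 4.55e-05) without and 2.28 ± 0.39 (adjusted p = 0.000299) with doxycycline. The interaction, which sets the effect of doxycycline under entinostat against its effect under DMSO, was -1.16 ± 0.55 and did not pass the test (adjusted p = 0.319). Without the first Dox_DMSO and first NoDox_Entinostat libraries the doxycycline effects were 3.19 ± 0.19 in DMSO and 3.09 ± 0.18 in entinostat, and the interaction was -0.10 ± 0.25. Il1b (chromosome 2, 129364570 to 129371139, minus strand, mm10) shares 25 exon bases with the antisense gene Il1bos, and the library kit does not mark strand. Il1bos stood at means of 0.894 and 3.46 CPM in Exp1_NoDox and Exp1_Dox, and at 1.52, 6.74, 41.1 and 124 CPM in NoDox_DMSO, Dox_DMSO, NoDox_Entinostat and Dox_Entinostat. Its means were higher in the same groups as those of Il1b and exceeded them in entinostat, and the part of the shared bases in the Il1b values was not tested.

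Il18, the other inflammasome-processed member of the family, had 1, 0 and 0 counts in NoDox_DMSO and 127, 79 and 84 in NoDox_Entinostat. The ratio of depth-scaled counts was 253, with a counting interval of 45.1 to 10027, and the gene was called higher (adjusted p = 1.73e-05). With doxycycline the counts were 0, 0 and 1 in DMSO and 29, 93 and 43 in entinostat, a ratio of 164 (29.1 to 6524, adjusted p = 3.05e-05). Il18 was listed at 1 or 2 in every library of experiment 1, so a doxycycline effect on it could not be measured at this depth. Il33, an alarmin, had 0 counts in all 6 DMSO libraries and 3, 4 and 5 in Dox_Entinostat. It was below the filter, and passed only when no filter was used (adjusted p = 0.0218). Il1a, the second interleukin-1, had at most 10 counts over the 12 libraries.

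Il4 encodes interleukin-4, the signal that drives type 2 immune responses, and it moved against Il1b with doxycycline in the absence of entinostat. Its level was 0.851, 2.17 and 1.32 CPM in Exp1_NoDox and 0.135, 0.641 and 0.137 CPM in Exp1_Dox. It was 4.04, 3.71 and 3.45 CPM in NoDox_DMSO and 0.909, 0.346 and 0.323 CPM in Dox_DMSO. In entinostat it was 22.8, 7.66 and 6.82 CPM without and 13.7, 21 and 15.1 CPM with doxycycline. The doxycycline groups did not overlap their controls in experiment 1 or in DMSO, whereas in entinostat they overlapped because the first NoDox_Entinostat library was the highest of all 6.

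With doxycycline in DMSO, Il4 fell by 2.84 on the log2 scale (SE 0.51, adjusted p = 0.0027). In experiment 1 the value was -2.24 ± 0.67 and missed the threshold (adjusted p = 0.0846), while with the replicate block it was -2.29 ± 0.25 (adjusted p = 6.46e-05). In entinostat it was 0.42 ± 0.42 (adjusted p = 0.456), and without the first NoDox_Entinostat library it was 1.19 ± 0.31 and called higher (adjusted p = 0.00753, and 7.17e-05 without both libraries that stand apart). Entinostat raised Il4 by 1.73 ± 0.44 (adjusted p = 0.00596) without doxycycline, a value of 0.95 ± 0.18 without both libraries that stand apart. With doxycycline it raised Il4 by 4.99 ± 0.53 (adjusted p = 1.05e-05), the largest value among the 8 members that were over the filter limit in 3 or more DMSO libraries.

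No member passed the test of the interaction between doxycycline and entinostat, against 0.166% of all genes higher and 0.106% lower, and Il4 was the only one of the 20 with an unadjusted p under 0.05. Its interaction was 3.26 ± 0.66 on the log2 scale (adjusted p = 0.0761), and DESeq2 called it (adjusted p = 0.000244). Without the first Dox_DMSO library it was 3.89 ± 0.65 (adjusted p = 0.0121), without the first NoDox_Entinostat library 4.04 ± 0.46 (adjusted p = 0.00223), and without both 4.66 ± 0.33 (adjusted p = 2.08e-06). Without both, Ccl25 was also called (1.31 ± 0.21, adjusted p = 0.000127), and so were 7972 of all genes in place of 41, which is 21.5% higher and 30% lower.

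Il4 (chromosome 11, 53602982 to 53618669) lies within 664.3 kb of Il13, Il5 and Il3. Il13, a partner of interleukin-4 in type 2 responses, had 0 counts in all 6 DMSO libraries, 42, 18 and 31 in NoDox_Entinostat and 16, 13 and 4 in Dox_Entinostat. Measured against a floor of 3 counts per group it was at least 26.5-fold higher with entinostat without doxycycline (adjusted p = 0.000638) and at least 10.9-fold higher with it (adjusted p = 0.00241). Il3, a growth factor of multipotent and mast cells, also had 0 counts in all 6 DMSO libraries, 18, 24 and 16 in NoDox_Entinostat and 1, 6 and 0 in Dox_Entinostat.

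Entinostat gave Il3 at least a 16.9-fold higher level without doxycycline (adjusted p = 0.00211), while with doxycycline the difference missed the threshold (adjusted p = 0.0604). Between the entinostat groups Il3 was lower with doxycycline, at -2.76 ± 0.79 (adjusted p = 0.0368), a call lost on leaving out single libraries, with adjusted p up to 0.122, and it was -2.76 ± 0.84 (adjusted p = 0.0148) without both libraries that stand apart. Il3 passed the filter through the NoDox_Entinostat libraries alone, so this difference was built into passing. Il5, the eosinophil growth factor, had 1, 2 and 0 counts in NoDox_DMSO, 0 in each Dox_DMSO library, 3, 3 and 5 in NoDox_Entinostat and 1, 0 and 1 in Dox_Entinostat, too few to be tested. Il15, which sustains natural killer and memory T cells, had 1 count over NoDox_DMSO and 38, 24 and 16 in NoDox_Entinostat, a ratio of 68.0 with a counting interval of 11.9 to 2722 (adjusted p = 0.000258). With doxycycline its counts were 0, 0 and 2 in DMSO and 16, 28 and 30 in entinostat, a ratio of 36.8 (9.84 to 310, adjusted p = 0.000248).

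Il6 encodes interleukin-6, which drives the acute phase response, and Il11 encodes a relative that signals through the same gp130 subunit. They moved in opposite directions with entinostat. Il6 had 11, 0 and 3 counts in NoDox_DMSO and 1 in each Dox_DMSO library, against 158, 90 and 96 in NoDox_Entinostat and 47, 207 and 175 in Dox_Entinostat. Entinostat raised it by 4.41 ± 0.76 (adjusted p = 0.000434) without doxycycline, and with doxycycline the ratio was 142, with a counting interval of 48.4 to 693 (adjusted p = 5.44e-05). The doxycycline groups overlapped in entinostat, at 0.51 ± 0.57 (adjusted p = 0.499), and in experiment 1 Il6 was at 11 counts or fewer in every library.

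Il11 was the only member called lower with entinostat. Its level was 0.989, 0.804 and 0.960 CPM in NoDox_DMSO and 0.252, 0.274 and 0.315 CPM in NoDox_Entinostat. With doxycycline it was 1.13, 1.75 and 1.70 CPM in DMSO and 0.604, 0.841 and 0.683 CPM in entinostat. The entinostat groups lay below their DMSO groups with no overlap, and each doxycycline group lay above its control. Il11 fell with entinostat by 1.70 on the log2 scale (SE 0.30, adjusted p = 0.000538) without and by 1.11 (SE 0.28, adjusted p = 0.00393) with doxycycline. It rose with doxycycline in entinostat, at 1.33 ± 0.30 (adjusted p = 0.0111, and 0.0543 without the second NoDox_Entinostat library), and 1.26 ± 0.33 (adjusted p = 0.00453) without both libraries that stand apart. In DMSO the value was 0.74 ± 0.27 (adjusted p = 0.132) and, without the first Dox_DMSO and first NoDox_Entinostat libraries, 0.91 ± 0.27 (adjusted p = 0.0217). In experiment 1 it was 0.40 ± 0.30 (adjusted p = 0.498).

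Il34, a ligand of the colony-stimulating factor 1 receptor, had 2, 3 and 3 counts in NoDox_DMSO and 7, 25 and 40 in NoDox_Entinostat. It was higher with entinostat by 2.89 ± 0.71 (adjusted p = 0.00494) without and 2.80 ± 0.81 (adjusted p = 0.00905) with doxycycline. Between the entinostat groups it was at -0.71 ± 0.58 (adjusted p = 0.36), and it was called lower, at -1.12 ± 0.46 (adjusted p = 0.0496), without the first Dox_DMSO and first NoDox_Entinostat libraries. Il17d, of the interleukin-17 family, was at 11, 4 and 14 counts in NoDox_DMSO and 71, 18 and 45 in NoDox_Entinostat. Its differences of 2.03 ± 0.60 (adjusted p = 0.0142) and 1.85 ± 0.60 (adjusted p = 0.0166) were each lost when single libraries were left out, with adjusted p up to 0.0609 and 0.0673. Il10, the anti-inflammatory interleukin, had 2 counts over the 12 libraries.

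The ELR-type CXC chemokines, ligands of the neutrophil receptor CXCR2, lie together in 146.6 kb of chromosome 5 (Cxcl5, Cxcl3, Cxcl15, Cxcl1 and Cxcl2). Cxcl3 was already present without entinostat and varied widely between replicates, at 1.81, 6.65 and 5.31 CPM in Exp1_NoDox and 1.19, 4.62 and 4.82 CPM in Exp1_Dox. It was 0.742, 1.19 and 1.83 CPM in NoDox_DMSO and 5.02, 3.82 and 3.57 CPM in NoDox_Entinostat, a rise of 1.72 ± 0.37 (adjusted p = 0.00218), and it rose by 1.87 ± 0.38 (adjusted p = 0.000945) with doxycycline. The doxycycline groups of Cxcl3 overlapped in every pair. In experiment 1 the value was -0.38 ± 0.64 (adjusted p = 0.803), and with the replicate block it was -0.39 ± 0.10 (adjusted p = 0.0116), each doxycycline library being below that of its own number.

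Cxcl5 was at 0.0959, 0.278 and 0.259 CPM in Exp1_NoDox and 0.363, 0.468 and 0.550 CPM in Exp1_Dox. In experiment 2 it was at 0.18, 0.152 and 0.175 CPM in NoDox_DMSO, 0.319, 0.367 and 0.603 CPM in Dox_DMSO, 1.11, 0.694 and 0.945 CPM in NoDox_Entinostat and 1.59, 1.84 and 2.95 CPM in Dox_Entinostat. The 4 groups of experiment 2 did not overlap each other. Cxcl5 rose with doxycycline in entinostat, by 1.21 ± 0.33 (adjusted p = 0.0222, and up to 0.112 with single libraries left out), and by 1.37 ± 0.35 (adjusted p = 0.00347) without both libraries that stand apart. In experiment 1 the value was 1.09 ± 0.38 (adjusted p = 0.129), or 1.11 ± 0.25 with the replicate block (adjusted p = 0.00477). In DMSO it was 1.34 ± 0.41 (adjusted p = 0.0598), or 1.32 ± 0.38 with the block (adjusted p = 0.0389), and 1.51 ± 0.44 without the first Dox_DMSO library (adjusted p = 0.0422, and 0.0182 without both libraries that stand apart). With entinostat it rose by 2.42 ± 0.39 (adjusted p = 0.000276) without and 2.29 ± 0.35 (adjusted p = 0.000141) with doxycycline.

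Cxcl2 had 2, 2 and 8 counts in NoDox_DMSO and 85, 45 and 69 in NoDox_Entinostat, a rise of 3.84 ± 0.58 (adjusted p = 0.000185). With doxycycline its counts were 7, 3 and 1 in DMSO and 72, 103 and 70 in entinostat, a rise of 4.41 ± 0.59 (adjusted p = 5.46e-05). Neighbouring Cxcl1 and Cxcl15 had at most 10 counts over the 12 libraries, so 3 of the 5 genes of this cluster were measurable and those 3 were higher with entinostat.

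Cxcl9, Cxcl10 and Cxcl11 encode the interferon-inducible ligands of CXCR3 and lie within 44.14 kb of chromosome 5. Cxcl10 was at 0.135, 0.304 and 0.305 CPM in NoDox_DMSO and 2.23, 3.82 and 4.07 CPM in NoDox_Entinostat, a rise of 3.75 ± 0.40 (adjusted p = 1.39e-05). With doxycycline it was at 0.344, 0.130 and 0.237 CPM in DMSO and 2.35, 1.82 and 2.07 CPM in entinostat, a rise of 3.13 ± 0.40 (adjusted p = 3.94e-05). It shares 133 exon bases with Art3 on the opposite strand. Cxcl9 had 0, 2 and 2 counts in NoDox_DMSO and 53, 122 and 132 in NoDox_Entinostat, a rise of 5.92 ± 0.63 (adjusted p = 1.4e-05). With doxycycline Cxcl9 had 2, 1 and 0 counts in DMSO and 30, 28 and 42 in entinostat, a ratio of 33.2 with a counting interval of 11 to 164 (adjusted p = 7.99e-05).

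Between the entinostat groups Cxcl9 was lower with doxycycline in every library, and it fell by 1.37 on the log2 scale (SE 0.43, adjusted p = 0.0364, up to 0.157 with single libraries left out), and without both libraries that stand apart it was at -1.65 ± 0.35 (adjusted p = 0.00104). Cxcl10 was at -0.70 ± 0.33 there (adjusted p = 0.131) and was called lower without the first NoDox_Entinostat library, at -0.93 ± 0.32 (adjusted p = 0.0294, and 0.00866 without both). In experiment 1 Cxcl10 was at -0.26 ± 0.25 (adjusted p = 0.622). Cxcl11 had at most 5 counts in any library of experiment 2 and was called with entinostat and doxycycline only when no filter was used (adjusted p = 0.0366). Cxcl12, the stromal ligand of CXCR4, was listed at 1 in every library of experiment 1 and was not analysed in experiment 2.

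Cx3cl1 encodes fractalkine, a membrane-bound chemokine, and lies with Ccl22 and Ccl17 in 66.45 kb of chromosome 8. It had 6, 6 and 8 counts in Exp1_NoDox and 21, 19 and 21 in Exp1_Dox, a difference of 1.59 ± 0.27 (adjusted p = 0.0128) that passing the filter had built in, or 1.51 ± 0.32 without the third Exp1_Dox library (adjusted p = 0.0609). In DMSO it had 1, 3 and 1 counts without and 4, 2 and 13 with doxycycline, overlapping groups at 1.88 ± 1.03 (adjusted p = 0.361). In entinostat it had 40, 144 and 130 counts without and 55, 207 and 134 with doxycycline, also overlapping. Entinostat raised it by 5.65 ± 0.82 (adjusted p = 0.00013) without and 4.36 ± 0.68 (adjusted p = 0.000166) with doxycycline.

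Ccl17, a ligand of CCR4, had 1, 3 and 10 counts in NoDox_DMSO and 80, 66 and 73 in NoDox_Entinostat, a rise of 3.75 ± 0.73 (adjusted p = 0.00101). With doxycycline its counts were 3, 0 and 1 in DMSO and 19, 100 and 60 in entinostat, a rise of 5.35 ± 0.88 (adjusted p = 0.000233). Ccl22, the other CCR4 ligand, stayed at 3 counts or fewer in every library of experiment 2.

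Ccl25 encodes the ligand of CCR9 that guides thymocytes and gut T cells. It was at 4.22, 3.67 and 3.76 CPM in Exp1_NoDox and 4.53, 3.73 and 3.80 CPM in Exp1_Dox, overlapping groups at 0.05 ± 0.13 (adjusted p = 0.878). It was at 8.43, 6.97 and 8.71 CPM in NoDox_DMSO and 14.8, 6.94 and 8.01 CPM in Dox_DMSO, where the first library stands above the other 5. In entinostat it was at 15.8, 8.88 and 8.91 CPM without and 18.6, 23.4 and 19.6 CPM with doxycycline. Ccl25 rose with entinostat in doxycycline, by 1.05 ± 0.29 (adjusted p = 0.00735), but at 0.48 ± 0.29 missed the threshold without it (adjusted p = 0.203). The rise with doxycycline in entinostat, 0.88 ± 0.29 (adjusted p = 0.0459), was lost on leaving out single libraries, with adjusted p up to 0.186, and was 1.20 ± 0.15 (adjusted p = 1.01e-05) without both libraries that stand apart. Ccl25 shares 204 exon bases with Elavl1 on the opposite strand, which stood at means of 165, 176, 85.1 and 70.0 CPM in NoDox_DMSO, Dox_DMSO, NoDox_Entinostat and Dox_Entinostat.

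Ccl2, the main attractant of monocytes, had 0 counts in each NoDox_DMSO library and 30, 49 and 36 in NoDox_Entinostat, at least 33.4-fold higher (adjusted p = 6.42e-05). With doxycycline it had 1, 0 and 0 counts in DMSO and 10, 14 and 27 in entinostat, a ratio of 50.8 with a counting interval of 8.71 to 2043 (adjusted p = 0.000339). Ccl9, a myeloid attractant of mice, had 0, 2 and 6 counts in NoDox_DMSO, 41, 23 and 25 in NoDox_Entinostat, 0 in each Dox_DMSO library and 1, 2 and 2 in Dox_Entinostat. It rose with entinostat without doxycycline by 3.25 ± 0.69 (adjusted p = 0.00279) and missed the threshold with it (adjusted p = 0.0708). Between the entinostat groups Ccl9 fell with doxycycline by 3.86 on the log2 scale (SE 0.75, adjusted p = 0.00669), and its libraries did not overlap. Ccl9 passed the filter through the NoDox_Entinostat libraries alone, so this difference was built into passing.

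Ccl9 lies in 138.9 kb of chromosome 11 with Ccl3, Ccl4, Ccl5 and Ccl6, and these neighbours had few or no counts. Ccl5 had at most a mean of 0.144 CPM in any group, Ccl3 and Ccl6 had at most 10 counts over the 12 libraries, and Ccl4 was at 0 in both doxycycline groups of experiment 2. In entinostat without doxycycline Ccl4 had 3, 6 and 1 counts against 0, 1 and 0 in DMSO, a ratio of 8.72 with a counting interval of 1.24 to 379. Each of these 4 was below the filter and was not tested.

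**Figure D3:**
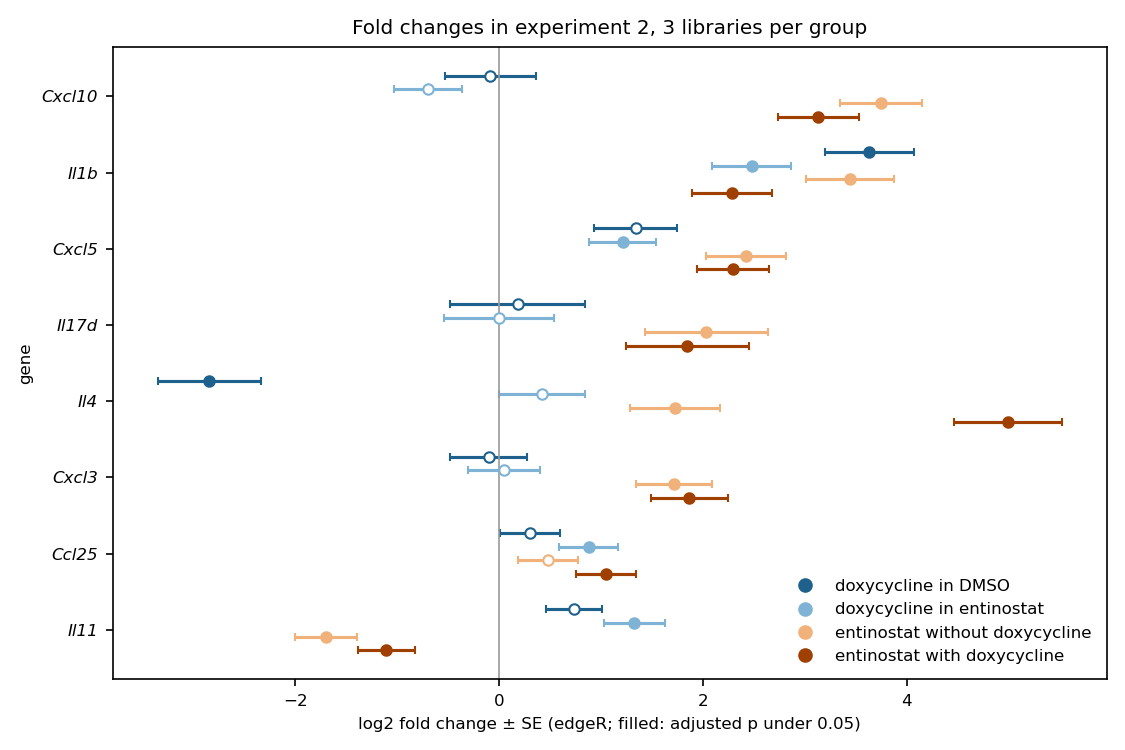
Points are log2 fold changes with standard errors (x axis) from edgeR in experiment 2 for the 8 genes over the filter limit in 3 or more DMSO libraries (y axis), filled where the adjusted p is under 0.05. Colours mark the 4 comparisons. Il4 shows -2.84 with doxycycline in DMSO and 4.99 with entinostat in doxycycline, Il11 is the only gene below 0 with entinostat, and Il1b is above 2 in all 4 comparisons.

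The receptor genes of the 2 families, listed with earlier results of these data known, were counted beside the ligands. Of 12 chemokine receptor genes tested in experiment 2, 11 were higher and 0 lower with entinostat without doxycycline, where 30.3% and 16.9% of all genes were. Since 7 of the 12 were over the filter limit in no DMSO library, their difference was built into passing. The smallest adjusted p was that of Ccr3, the eosinophil eotaxin receptor, with 0 counts in each NoDox_DMSO library and 219, 340 and 271 in NoDox_Entinostat (adjusted p = 1.86e-06). Next by adjusted p were the decoy-like Ccrl2 (2.91 ± 0.25, adjusted p = 2.76e-06) and the erythroid chemokine-binding protein Ackr1 (3.34 ± 0.43, adjusted p = 5.2e-05). With doxycycline present, 8 were higher and 0 lower, where 33.9% and 29.9% of all genes were. Of 27 interleukin receptor genes, 5 of them, Il1rl2 included, over the limit in no DMSO library, 18 were higher and 2 lower without doxycycline, with Il1rl2 at 5.06 ± 0.36 (adjusted p = 7.49e-07) and the interleukin-1 receptor Il1r1 at 1.99 ± 0.17 (adjusted p = 2.54e-06), and 16 were higher and 4 lower with it. The median log2 fold change over the interleukin receptors was 1.72 without and 1.19 with doxycycline, against 0.07 and 0.14 over all genes. In all, 8 of these 27 were over the limit in fewer than 3 DMSO libraries and passed through entinostat libraries. The counts and medians of the receptors are therefore a description and not a test of the set.

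With doxycycline alone, receptor genes were called in both directions. The shares over all genes were 5.26% higher and 8.36% lower in experiment 1, and 3.77% and 5.53% in DMSO. In experiment 1, 1 of 6 chemokine receptors was higher (Ackr1, 2.17 ± 0.46, adjusted p = 0.0272) and 1 lower (Cxcr3, -1.74 ± 0.42, adjusted p = 0.0407), and in DMSO 2 of 12 were higher and 1 lower, again with Ackr1 at 2.57 ± 0.43 (adjusted p = 0.00172) and Cxcr3 at -3.34 ± 0.71 (adjusted p = 0.00857). Of the interleukin receptors, 3 of 21 were higher and 6 lower in experiment 1 and 2 of 27 higher and 5 lower in DMSO. Il9r, the interleukin-9 receptor, which passed the filter in experiment 1 through the doxycycline libraries alone, was higher (3.20 ± 0.37, adjusted p = 0.00352, and 2.35 ± 0.55, adjusted p = 0.0149), and Il11ra1, the receptor of interleukin-11, was lower (-1.70 ± 0.18, adjusted p = 0.00277, and -1.50 ± 0.23, adjusted p = 0.000982). In entinostat, doxycycline gave 0 higher and 4 lower of 12 chemokine receptors and 2 higher and 10 lower of 27 interleukin receptors, where 8.96% and 15.1% of all genes were. Among those lower, Ccr1, Ccr7, Cxcr2 and Il18rap were over the limit in no DMSO library and were tested through entinostat libraries. The lower call of Ccr7 was built into passing.

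Among 15 other cytokine ligands tested in experiment 2, 6 of which (Csf2, Lif and Tslp included) were over the limit in no DMSO library, 9 were higher and 2 lower with entinostat without doxycycline, led by Csf2 (5.23 ± 0.51, adjusted p = 7.03e-06), Tslp (4.34 ± 0.65, adjusted p = 0.000159) and Lif (2, 0 and 1 counts in NoDox_DMSO and 22, 40 and 44 in NoDox_Entinostat, adjusted p = 8.07e-05), while Osm fell by 1.36 on the log2 scale (SE 0.23, adjusted p = 0.000371). With doxycycline 8 were higher and 2 lower. Since 9 of the 15 were over the limit in fewer than 3 DMSO libraries, these counts are a description likewise. Of 17 NF-kB factors and feedback genes, 6 were higher and 1 lower with entinostat without doxycycline (Tnfaip3 1.33 ± 0.19, adjusted p = 0.000105, and Rel 2.43 ± 0.38, adjusted p = 0.000209) and 5 were higher and 5 lower with it, shares near the 30.3% and 33.9% higher and, with doxycycline, the 29.9% lower over all genes. Of 4 tested genes of interleukin-1 and interleukin-18 maturation, 2 were higher without doxycycline (Aim2 2.38 ± 0.37, adjusted p = 0.000217, and Nlrc4 3.48 ± 0.55, adjusted p = 4e-04) and 3 with it. Nlrc4 was over the filter limit in fewer than 3 DMSO libraries. It passed through entinostat libraries, so its rise with entinostat was favoured by passing.

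While Il1b rose with doxycycline, genes of its maturation were lower or missed the threshold in experiment 1 and in DMSO. Of the 4 maturation genes tested, 0 were higher and 2 lower in experiment 1 (Gsdmd -1.19 ± 0.10, adjusted p = 0.00161, and Nlrc4 from 18, 14 and 10 counts to the table minimum of 1 in each library, adjusted p = 0.00585) and 0 higher and 2 lower in DMSO (Gsdmd -1.33 ± 0.17, adjusted p = 0.000232, and Nlrc4 from 4, 4 and 11 counts to 0 in each library, adjusted p = 0.0197). Over all genes, 5.26% were higher and 8.36% lower in experiment 1, and 3.77% and 5.53% in DMSO. In experiment 1 Nlrc4 passed the filter through the Exp1_NoDox libraries alone, so its lower call there was built in. Gsdmd encodes the pore that releases mature interleukin-1 and Nlrc4 an inflammasome sensor. Sigirr, an inhibitor of interleukin-1 receptor signalling, was lower in both (-1.29 ± 0.12, adjusted p = 0.00186, and -1.73 ± 0.23, adjusted p = 0.000253). Il1r1 was higher in both (0.96 ± 0.15, adjusted p = 0.0101, and 0.63 ± 0.16, adjusted p = 0.0266). Of the 17 NF-kB genes, 1 was higher and 4 lower in experiment 1 and 0 higher and 1 lower in DMSO, near or below the shares of all genes except for the lower calls of experiment 1.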

How the data were processed

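RNA sequencing counts per gene were used as deposited, in 1 table per experiment. Per the labels' protocols, polyadenylated RNA was prepared with a TruSeq kit that does not mark strand. The submitters' processing notes name the mm10 build, the tools STAR and DESeq2, and bcl2fastq 2.17.1.14, with no role for any. The counting tool and annotation are not given in the sources used here. The authors' table of experiment 1 holds no count under 1, and every per-sample column was used. The labels call the 3 libraries of a group biological replicates and do not speak of separate cultures, so p-values measure the spread between these samples.

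Differences were tested with edgeR 4.0.16 (R 4.3.3, limma 3.58.1), using TMM factors, filterByExpr, the quasi-likelihood test, Benjamini-Hochberg adjustment over all genes tested and a threshold of 0.05, in 1 fit of 6 libraries for experiment 1 and 1 fit of 12 for experiment 2. All tests were two-sided. Standard errors were taken from the fold change and its F statistic. Common coefficients of biological variation were 0.194 and 0.242. Counting intervals are exact at 95% and, like the floor of 3 counts over a group, cover counting error only. Positions and exon lengths are from GENCODE M21 on mm10, and figures were drawn with Python 3.11.15 and matplotlib 3.10.9. The fits were tested on simulated data.

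Members called in any comparison and members at 1 CPM or more in a group were named, together with a short list of well-known members. Genes of the receptor and pathway lists were named only where called, at most 4 per list and comparison by adjusted p. Il1r1 in DMSO, at rank 5, was added beside its value in experiment 1. The members and lists were chosen with earlier results of these data known.

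Whether replicate numbers pair libraries was checked from how far their departures from the mean of their own group correlated. For experiment 1, pairs of 1 number had 0.829, 0.724 and 0.313, and in DMSO 0.334, 0.267 and 0.102, all over the limit of 0.1, so blocked values are given there where they change a call. In the other comparisons of experiment 2 at least 1 pair was at or below 0.0964. Dox_DMSO and NoDox_Entinostat, which were not compared with each other directly, had 0.780, 0.549 and 0.533. Both groups enter the interaction with the same sign, so departures that they share add up in that test. Alternatives were other scaling factors, other filters, DESeq2 1.42.0, the replicate block, counts minus 1, and leaving out libraries. Leaving out the 2 libraries that stand apart and adding up Il1b and Il1bos were chosen after seeing the data.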

Additional observations from a re-analysis of the deposited data

Results flagged for a closer look

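Among the genes of the receptor and pathway lists, Tnf, which encodes the inflammatory cytokine tumour necrosis factor, was in the main fit the only one whose doxycycline effect differed between DMSO and entinostat by the test of the interaction (2.89 ± 0.48 on the log2 scale, edgeR adjusted p = 0.0274). The alternative runs are not given for Tnf. Without the first Dox_DMSO and first NoDox_Entinostat libraries, 7972 of all genes were called for the interaction in place of 41. Tnf was at 0.742, 1.33 and 1.40 CPM in NoDox_DMSO and 0.0982, 0.0864 and 0.0431 CPM in Dox_DMSO. In these Dox_DMSO libraries 1 CPM is 40.7, 46.3 and 46.4 counts, so the Tnf levels there rest on few counts. In entinostat it was at 3.84, 3.12 and 2.98 CPM without and 1.79, 1.52 and 1.65 CPM with doxycycline. Each doxycycline group lay below its control with no overlap. Tnf fell by 3.89 on the log2 scale in DMSO (SE 0.39, adjusted p = 3.23e-05) and by 1.0 in entinostat (SE 0.28, adjusted p = 0.0243), and by 3.49 in experiment 1 (SE 0.22, adjusted p = 0.000882).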

How the results depend on the processing

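No member called in any comparison changed direction under any alternative run. With genes at 1 CPM or more in 3 libraries, 1 member was called with doxycycline in experiment 1 (2 in the main analysis), 4 with doxycycline in entinostat (7) and 11 with entinostat alone (19), where fewer genes were tested. Over all genes, that filter gave 1673 calls among 10889 genes, 3119 among 12218 and 5504 among 12218 in these comparisons. With the replicate block, 5 were called in experiment 1, 3 with doxycycline in DMSO and 1 for the interaction. No filter and DESeq2 each called 1 for the interaction. Without the first Dox_DMSO and first NoDox_Entinostat libraries, 4 were called with doxycycline in DMSO and 2 for the interaction. Leaving out single libraries gave 1 to 3 calls in experiment 1, 2 to 3 in DMSO, 2 to 9 with doxycycline in entinostat, 18 to 19 and 17 to 19 with entinostat without and with doxycycline, and 0 to 1 for the interaction. Over all genes, these runs gave 684 to 1508 calls in experiment 1, 862 to 1741 in DMSO and 994 to 7583 with doxycycline in entinostat. They gave 6009 to 8193 and 8315 to 10947 with entinostat without and with doxycycline, and 9 to 3061 for the interaction. From 13936 to 14158 genes were tested in experiment 1 and from 15431 to 15616 in experiment 2. The replicate block gave, over all genes, 7027 calls in place of 1881 in experiment 1 and 2033 in place of 1401 with doxycycline in DMSO. With doxycycline in entinostat the block gave 6115 in place of 3614, and for the interaction 177 in place of 41. For the interaction, no filter gave 206 and DESeq2 229. With library size alone, 26.0% of all calls with doxycycline in entinostat were higher, against 37.3%. At a detection level of 0.5 CPM, 18 members were detected in place of 13. Adding up Il1b and Il1bos changed no call, but both genes were higher in the same groups, so this does not test their overlap. The causes of these differences were not tested. For members at a few counts per library, depth limits what could be measured, and a difference missing the threshold is not shown to be absent.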
